A study of Arabidopsis thaliana with 24 samples.

Results

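The organ difference in the 3 h effect of salicylhydroxamic acid (SHAM) asks, gene by gene, whether shoots of Arabidopsis thaliana seedlings changed by a different amount from roots. It is the change in shoots, SHAM for 3 h against water, minus the same change in roots. The contrast uses 12 of the 24 libraries of the series, 3 in each of 4 groups: root water, root SHAM 3 h, shoot water and shoot SHAM 3 h. The labels alone decide which 12 libraries belong to it.

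All seedlings were wild type of the ecotype Columbia-0 and 7 days old, grown at 21 °C under 16 h of light and 8 h of dark on medium with 1% sucrose. Each biological replicate pooled 30 to 50 seedlings, and roots and shoots were cut apart after the treatment. The control seedlings stood in water for 1 h. The label of the treated seedlings gives 1 mM SHAM, while the protocol names 0.1 mM SHAM and also a solution of 30% polyethylene glycol (PEG) with 1 mM SHAM, so whether PEG was present cannot be told from the labels. Because water was sampled at 1 h only, an effect of SHAM and one of the longer time in solution or of the hour of day cannot be told apart.

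SHAM blocks the alternative oxidase, a mitochondrial enzyme that passes electrons to oxygen past the later respiratory complexes, and it is chemically close to salicylate, a defence hormone. Roots and shoots meet a compound in solution with different equipment: roots take up iron and other minerals and carry few chloroplasts, whereas shoots hold the photosynthetic tissue. Chaperones of the endoplasmic reticulum fold secreted proteins, and indole glucosinolates are defence compounds made from tryptophan in both organs.

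Libraries held between 862731 (root water replicate 2) and 3622300 counts (shoot water replicate 3). All 62 photosynthesis genes tested were higher in water shoots than in water roots (25.1% of all genes). Of 30 root hair and endodermis loci 26 were tested, and 25 were lower in water shoots (25.1% of all genes). The organ labels fitted these markers. Of the root loci 8 had 0 counts in all water shoots, and such genes enter the test mainly through roots. Photosynthesis genes took 30.3 to 33.8% of counts in water shoots and 29.1 to 29.3% in SHAM 3 h shoots. In water roots they took 0.238 to 0.315%. Among the SHAM 3 h roots replicate 1 stood apart, at 0.617% (Wilson 95% interval 0.604 to 0.630%) against 0.190% and 0.169% in replicates 2 and 3. Root hair and endodermis genes took 0.323 to 0.445% in water roots and 0.0857 to 0.145% in SHAM 3 h roots. In pooled organs, fewer cells of a type and less RNA per cell cannot be told apart.

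Of 11704 genes tested, 202 (1.73%) differed between the organs in their 3 h effect at an adjusted p under 0.05 in edgeR's quasi-likelihood test. The shoot change was the lower one in 151 genes (1.29%) and the higher one in 51 (0.436%). Among the 151, the iron carrier gene OPT3, the vacuolar transporter gene ZIF1, the glucosyltransferase gene UGT75B1 and the glutathione transferase gene GSTU19 all rose more in roots than in shoots. Among the 51, the endoplasmic reticulum chaperones BIP1, BIP2 and CNX1, the glucosinolate enzyme CYP83B1 and the kinase gene MKK4 rose in shoots and did not pass the test in roots. Every one of the 202 differed by at least 2-fold, against 29.9% of all genes tested. At least 4-fold was reached by 125 (61.9%), against 7.53%. The median standard error of the 202 was 0.46, so smaller differences could seldom be called and these sizes follow in part from the calling. An unadjusted p under 0.05 was reached by 1631 genes, and the median organ difference over all genes was -0.07 on the log2 scale.

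With library size alone as the scaling, the split turned to 105 higher and 62 lower of 167 genes. The median organ difference over all genes moved from -0.07 to 0.32, and 113 of the 202 kept their call. None of the 202 changed sign, which genes chosen from the same libraries could hardly do. Leaving out 1 library gave 81, 119 or 105 calls without root water replicate 1, 2 or 3, and 123, 120 or 131 without root SHAM 3 h replicate 1, 2 or 3. It gave 125, 88 or 151 calls without shoot water replicate 1, 2 or 3, and 103, 79 or 149 without shoot SHAM 3 h replicate 1, 2 or 3. In all 12 of these fits 59 genes kept their call, 47 lower and 12 higher. A fit with a block for the pool of treatment and replicate number, given in the closing section, kept 79 of the 202. Where a gene below is said to keep or lose its call, the fits without 1 library are meant.

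**Figure D1:**
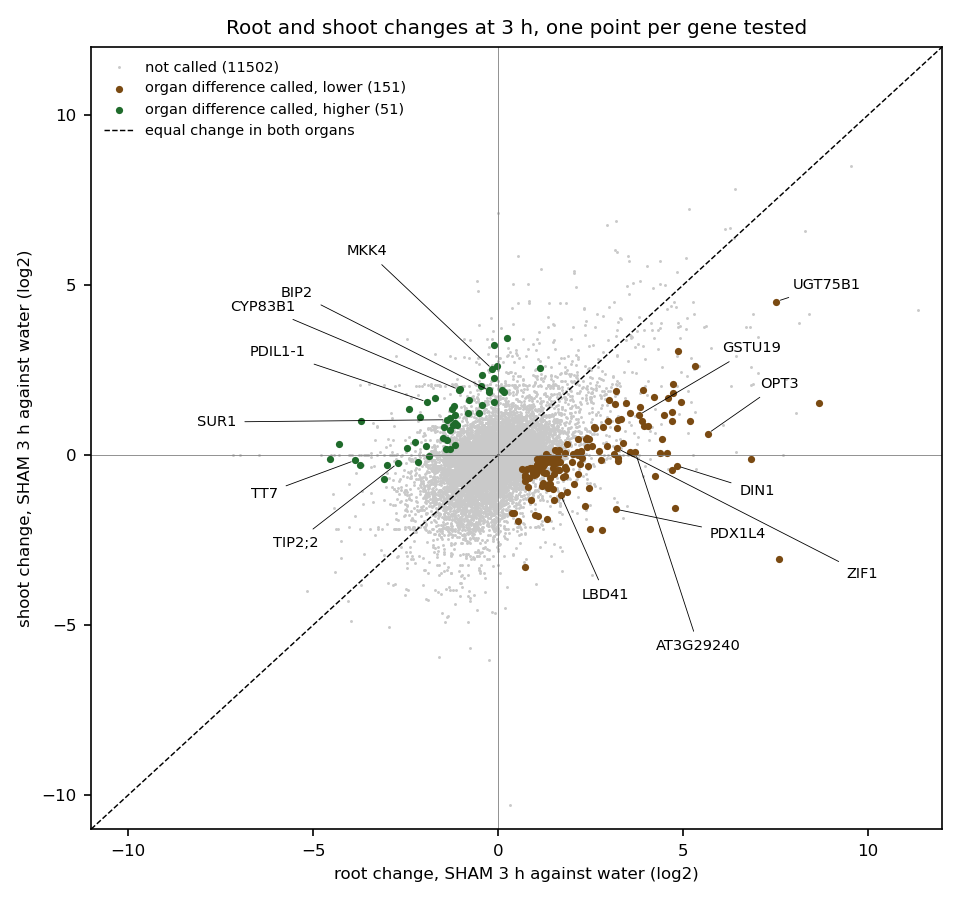
Change in roots (horizontal axis) and in shoots (vertical axis), SHAM 3 h against water on the log2 scale, for each of the 11704 genes tested. The 151 genes called lower lie below the dashed line of equal change and the 51 called higher lie above it, with the called genes far from the line and most genes around the origin.

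Most of the lower genes were genes of a root response. Of the 151, 113 rose in roots with no call in shoots, 21 rose in both organs, 8 rose in roots and fell in shoots, 7 fell in shoots with no call in roots, and 2 were called in neither organ. Of the 51 higher genes, 31 fell in roots with no call in shoots and 18 rose in shoots with no call in roots. CNI1, a ubiquitin ligase gene, rose in both, and AT4G39840, annotated as a cell wall integrity and stress response component-like protein, fell in roots and rose in shoots. Of the 202, 196 reached a mean of 2 CPM in each organ, against 9712 of all 11704 genes tested (83%). CPM are counts relative to the library total after TMM scaling, the unit of all levels here. The scaling factors were 1.562 to 1.646 in water roots and 1.203 to 1.284 in SHAM 3 h roots. In water and SHAM 3 h shoots they were 0.722 to 0.804, so levels compared between organs depend on this scaling. In root water replicate 2, shoot water replicates 1 and 2 and shoot SHAM 3 h replicate 3, 2 CPM is under 3 counts. Over all genes tested, 1869 (16%) were called in roots and 619 (5.29%) in shoots, with the shoot count at 299, 400, 362 and 360 without shoot SHAM 3 h replicate 1 or 2 or shoot water replicate 1 or 2, and the root count at 1198 without root water replicate 1. Of these genes 310 were called in both organs in the same direction and 9 in opposite directions. Of the 1550 genes called in roots and not in shoots, the organ difference itself passed the test in 144, and of the 300 called in shoots and not in roots in 25.

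In water, 125 of the 151 lower genes were higher in shoots than in roots and 34 of the 51 higher genes were lower in shoots. Over all genes tested, 50.2% differed between the organs in water, 25.1% higher and 25.1% lower in shoots. The water libraries enter both the water level and the organ difference, so the counts are a description. AT3G29240, annotated as a PPR protein of the DUF179 family, shows the commonest form. Its level in roots was 33.8, 25.3 and 29.9 CPM in water and 369, 374 and 432 CPM after SHAM, and in shoots it was 903, 1010 and 835 CPM in water and 968, 903 and 1030 CPM after SHAM. The root groups lay far apart and the shoot groups overlapped, with every shoot library above every root library. Its organ difference was -3.64 ± 0.34 (log2, standard error, 3 libraries per group; adjusted p = 1.8e-06), the lowest adjusted p of all genes tested.

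Iron deficiency genes rose in roots and none passed the test in shoots. They include the transcription factors that switch on iron uptake, their regulators and iron transporters. Of 15 tested, 11 rose and 1 fell in roots (10.3% and 5.63% of all genes). In shoots 0 rose or fell by edgeR (3.74% and 1.55%), and 2 had an unadjusted p under 0.05. The organ difference was called lower in 3 and higher in 0 (1.29% and 0.436%). The median organ difference of the list was -2.74 against -0.07 over all genes, and it ran from -3.03 to -1.93 over the alternative fits, which called 2 to 6 members lower and up to 1 higher.

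OPT3, a carrier that loads iron into the phloem and takes part in signalling iron status from shoot to root, had 9.20, 7.04 and 12.6 CPM in water roots and 315, 596 and 596 CPM in SHAM roots. In shoots it had 85.2, 99.1 and 136 CPM in water and 226, 169 and 102 CPM after SHAM. The root groups did not overlap, whereas the shoot groups did. Roots rose by 5.67 ± 0.53 and the shoot change was 0.63 ± 0.43, an organ difference of -5.04 ± 0.65 (adjusted p = 0.00014).

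ZIF1, a vacuolar transporter that moves nicotianamine, a metal chelator, behaved alike at a lower level. It rose from 11.5, 9.15 and 11.2 CPM to 95.3, 88.8 and 118 CPM in roots and stood at 10.4, 11.6 and 14.1 CPM against 13.7, 17.8 and 9.61 CPM in shoots. In water the organs overlapped, and after SHAM the roots lay far above the shoots. Its organ difference was -3.03 ± 0.46 (adjusted p = 0.00052). PYE, a bHLH repressor of iron genes, followed with -2.74 ± 0.68 (adjusted p = 0.038) and levels of 3.4 to 3.94 CPM in water roots, 13 to 20 in SHAM roots, 4.73 to 7.14 in water shoots and 3.48 to 4.39 in SHAM shoots. OPT3 and ZIF1 kept their call without each of the 12 libraries, whereas PYE kept it in 1 of those 12 fits.

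Other iron genes also rose in roots and had few counts in shoots. BHLH39, a transcription factor that acts with FIT to activate iron uptake, was read 0.985, 0 and 0.340 CPM in water roots and 89.8, 168 and 131 CPM in SHAM roots. Shoots had 1 count in water and 6 counts after SHAM over all libraries, a ratio of 5.58 with a 95% counting interval of 0.677 to 257. Its organ difference of -5.55 ± 2.16 did not pass the test (adjusted p = 0.249). AT1G47395 and AT1G47400, which encode short iron-responsive peptides, had organ differences of -6.33 and -5.76 that also did not pass.

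Of 8 genes of iron storage tested, 3 fell in roots and 1 fell in shoots (5.63% and 1.55% of all genes). By edgeR 0 of the 8 had a called organ difference (2 at an unadjusted p under 0.05), and DESeq2 called 2 higher. The list's median was 1.02. FER1, the main leaf ferritin and an iron store, fell in both organs. It went from 388, 308 and 449 CPM to 95.3, 43.7 and 47.6 CPM in roots and from 509, 588 and 729 CPM to 223, 253 and 239 CPM in shoots. The water and SHAM groups did not overlap in either organ, and its organ difference of 1.27 ± 0.41 did not pass (adjusted p = 0.122). Without SHAM root replicate 1 it was 1.82 ± 0.39 (adjusted p = 0.0212), and 2 of the 8 genes were called higher. With library size alone FER1 was the 1 called, at 1.68 (adjusted p = 0.0342).

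**Figure D2:**
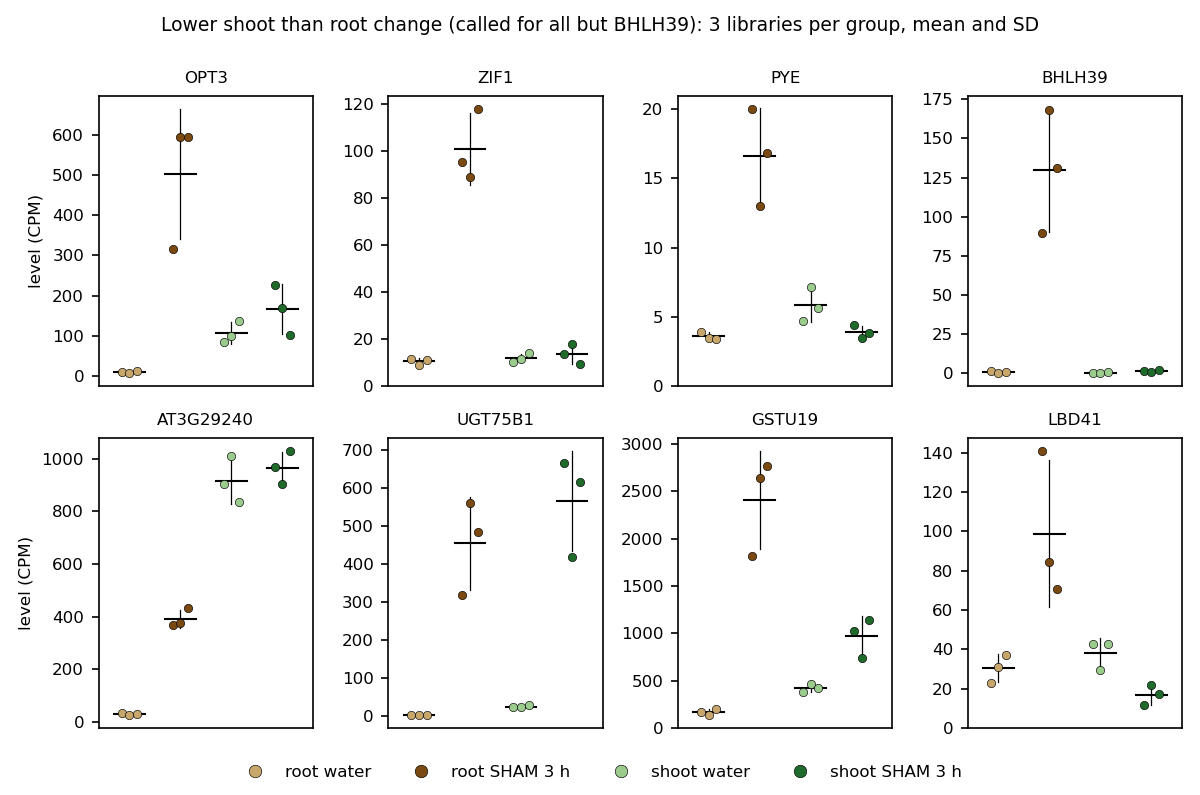
Levels in CPM of 8 genes whose shoot change was below their root change, in each of the 3 libraries of the 4 groups, with the mean (bar) and SD (line). OPT3, ZIF1, PYE and BHLH39 lie well above water in SHAM roots, AT3G29240 moves in roots towards the shoot level, UGT75B1 and GSTU19 rise in both organs, and LBD41 rises in roots and falls in shoots. BHLH39 was not called.

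Several genes that handle small foreign molecules rose in both organs, with a larger root change in a few. UGT75B1, which joins glucose to phenolic acids such as benzoate derivatives, had 2.3, 2.11 and 2.72 CPM in water roots and 319, 559 and 485 CPM in SHAM roots. In shoots it had 22.7, 22.3 and 28.2 CPM in water and 664, 417 and 616 CPM after SHAM. The SHAM levels of the organs overlapped, and the water levels did not. The root change was 7.52 ± 0.43 and the shoot change 4.51 ± 0.35, giving an organ difference of -3.01 ± 0.51 (adjusted p = 0.0015). It was the 1 member called among 11 tested glucosyltransferases for small phenolics (1.29% of all genes were called lower). Of the 11, 9 rose in roots and 8 in shoots (10.3% and 3.74% of all genes).

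GSTU19, which joins glutathione to electrophiles, had 173, 141 and 201 CPM in water roots and 1820, 2640 and 2770 CPM in SHAM roots. Shoots had 387, 470 and 427 CPM in water and 1030, 738 and 1140 CPM after SHAM. It rose in both organs, and SHAM roots lay above SHAM shoots. Its organ difference was -2.63 ± 0.41 (adjusted p = 0.00068). Tau class glutathione transferases are close in sequence, so the counts of single members are uncertain. Of 28 glutathione transferases tested, 2 were called lower and 0 higher, with 11 rising in roots and 5 in shoots. Over all genes these shares were 1.29% and 0.436%, and 10.3% and 3.74%.

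The other called transferase was GSTU11, which had 0 counts in water roots and 87 in SHAM roots, at least 26.5-fold higher against a floor of 3 counts over the group. In shoots it had 2 and 0 counts, so its organ difference rests on the root libraries, and its call held in 1 of 12 fits that left out a library. PP2-B14, a phloem lectin-type F-box gene, had 0 and 230 counts in roots, at least 70-fold higher, with 0.947, 3.57 and 1.41 CPM in water shoots and 5.86, 4.78 and 5.76 CPM in SHAM shoots, a change that did not pass. Its organ difference was called (adjusted p = 0.031), a call that held in 3 of the 12 fits. DTX1, an efflux carrier of toxic compounds, had 1 and 52 counts in roots, a ratio of 47.5 with an interval of 8.15 to 1910. In shoots DTX1 rose by 1.57 ± 0.39. Its organ difference was called (adjusted p = 0.042), and of the 12 fits without 1 library the call held in the 1 without SHAM root replicate 1.

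The monooxygenase gene MO1 and the acyltransferase gene PMAT1, which adds malonyl groups to phenolic glucosides, also rose in both organs with a larger root change, by -2.90 ± 0.40 and -2.72 ± 0.52 in organ difference. A pair of neighbouring acyltransferase genes of the BAHD family moved the same way. AT5G07860 rose from 5.91, 4.93 and 5.10 CPM to 117, 175 and 129 CPM in roots and from 53.0, 59.8 and 74.0 CPM to 188, 145 and 115 CPM in shoots. Its organ difference was -3.44 ± 0.47, and that of AT5G07870 was -3.08 ± 0.34 (adjusted p = 0.00018 and 1.4e-05). These neighbours resemble each other, so their counts are uncertain as single genes. All 4 genes kept their call without each of the 12 libraries.

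Of 7 genes of electrophile reductases, P450 enzymes and efflux carriers, 6 rose in roots and 6 in shoots (10.3% and 3.74% of all genes). DTX1 was the 1 called lower (1.29% of all genes). CYP710A1, a sterol desaturase gene, was called higher (0.436% of all genes). It had 15.5 to 33.2 CPM in water roots, and SHAM roots lay within that range, while shoots rose from 0, 0.893 and 1.06 CPM to 9.76, 9.13 and 7.69 CPM. The shoot groups did not overlap, and the root groups did. This gave an organ difference of 3.20 ± 0.83 (adjusted p = 0.045), a call that held in 3 of 12 fits that left out a library.

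Genes of sugar starvation and darkness differed in 2 of 14 members, both lower (1.29% of all genes). The list median was -0.92 (-0.36 without SHAM root replicate 1). DIN1, also called SEN1, a marker of dark-treated and ageing leaves, had 3.94, 5.63 and 10.5 CPM in water roots and 394, 93.8 and 98.8 CPM in SHAM roots. Shoots had 3380, 4710 and 3440 CPM in water and 3040, 3070 and 3150 CPM after SHAM. SHAM root replicate 1, with the highest photosynthesis share of the SHAM 3 h roots, was the highest of the roots, and every root library lay far below every shoot library. Its organ difference of -5.14 ± 0.81 (adjusted p = 0.00072) was -4.02 ± 0.71 without that library (adjusted p = 0.0038). DIN6, the asparagine synthetase gene ASN1, rose in both organs, from 18.1, 26.1 and 28.6 CPM to 326, 369 and 346 CPM in roots and from 400, 451 and 317 CPM to 1060, 1210 and 830 CPM in shoots. The difference between the organs was -2.43 ± 0.52 (adjusted p = 0.013, and 0.086 without root water replicate 1).

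Light harvesting genes depended on 1 library. LHCB2.4, an antenna protein of photosystem II, had 2.96, 4.22 and 5.10 CPM in water roots and 245, 27.6 and 25.7 CPM in SHAM roots. In shoots it had 139, 232 and 246 CPM in water and 292, 189 and 167 CPM after SHAM. All SHAM roots lay above all water roots, replicate 1 by far the most, and the shoot groups overlapped. The shoot change minus the root change was -4.50 ± 1.04 (adjusted p = 0.026), and -2.51 ± 0.81 (adjusted p = 0.166) without SHAM root replicate 1, whose photosynthesis share is given above; the part of that share in the result was not tested. Of 21 light harvesting genes tested this 1 was called lower (1.29% of all genes) and 20 had a negative organ difference. The list's median turned from -0.89 to 0.62 without that library. Photosystem and carbon fixation genes, with 0 calls, turned likewise from medians of -0.66 and -0.26 to 0.36 and 0.65. The members of the LHCB2 group are close in sequence and uncertain as single genes.

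ELIP2, a light stress protein of the thylakoid, was the called member of 13 light signalling genes (1.29% of all genes were called lower). It rose from 42.4, 29.6 and 41.5 CPM to 197, 182 and 215 CPM in roots, with 5.68, 3.57 and 7.76 CPM against 7.81, 7.39 and 10.6 CPM in shoots. Roots lay above shoots in every library, including SHAM root replicates 2 and 3. The organ difference came to -1.91 ± 0.44 (adjusted p = 0.028) and kept its call in 3 of the 12 fits that left out a library.

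Of the 8 genes that rose in roots and fell in shoots, LBD41 belongs to the hypoxia list. LBD41 is a transcription factor gene of the core response to low oxygen. It went from 23.0, 31.0 and 37.4 CPM to 141, 84.3 and 70.8 CPM in roots and from 42.6, 29.5 and 42.7 CPM to 11.7, 22.2 and 17.3 CPM in shoots. The groups did not overlap within either organ. Its root change was 1.69 ± 0.33 and its shoot change -1.17 ± 0.35, the latter close to the threshold (adjusted p = 0.04936). Its organ difference was -2.86 ± 0.47 (adjusted p = 0.0012), and this was called without each of the 12 libraries. Of 17 hypoxia genes tested 2 were called, both lower (1.29% of all genes), and the list's median was -1.14. The other, AT3G10020, had -1.54 ± 0.38 (adjusted p = 0.039) and lost its call without any 1 of the 12 libraries, so that 1 call was left in each of those fits. The fermentation enzyme gene ADH1 had an organ difference of -1.32 that did not pass.

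A gene related to vitamin B6 synthesis also rose in roots and fell in shoots. PDX1L4, annotated as a putative PDX1-like protein, went from 1.31, 2.82 and 1.7 CPM to 29.7, 13.5 and 9.16 CPM in roots and from 229, 159 and 101 CPM to 44.4, 54.8 and 62.4 CPM in shoots. This gave an organ difference of -4.78 ± 0.74 (adjusted p = 0.00068). PDX1.1, a subunit of the enzyme that makes the vitamin, rose in roots by 1.48 ± 0.34 with a shoot change of -1.0 ± 0.32 that was not called, and RSR4, the PDX1.3 subunit, had an organ difference of -1.3 ± 0.32 (adjusted p = 0.041). These are close relatives and uncertain as single genes, and RSR4 kept its call in 0 of the 12 fits that left out a library.

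AGP13, an arabinogalactan protein of the cell surface, rose from 108, 151 and 151 CPM to 397, 340 and 288 CPM in roots and fell from 5.68, 8.93 and 3.53 CPM to 1.95, 1.3 and 0.961 CPM in shoots. BETA-OHASE 1, which hydroxylates beta-carotene, rose from 2.11 to 4.93 CPM up to 12.7 to 17.1 CPM in roots and fell from 52.1 to 75.9 CPM down to 30.7 to 43.9 CPM in shoots. Water and SHAM did not overlap in either organ for these genes. Their organ differences were -3.21 ± 0.53 and -2.89 ± 0.39 (adjusted p = 0.0011 and 0.00016). AT5G56100, annotated as a glycine-rich protein or oleosin, and AT2G40020, annotated as related to a nucleolar histone methyltransferase, followed with -3.84 ± 0.63 and -2.93 ± 0.57.

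Some genes with the lowest organ differences have no assigned function or few root counts. AT1G07985 rose from 2.96, 3.52 and 2.04 CPM to 74.0, 43.2 and 41.8 CPM in roots, with 8.52 to 13.4 CPM against 6.83 to 7.69 CPM in shoots, and its organ difference was -4.84 ± 0.53 (adjusted p = 1.4e-05). CGLD27, a conserved gene of the green lineage, rose from 0.985, 2.11 and 3.06 CPM to 20.6, 52.2 and 56.1 CPM in roots and stood at 46.2 to 47.3 CPM against 44.3 to 55.7 CPM in shoots. AT1G56150, an auxin-responsive SAUR-like gene, had 1 count in water roots and 194 in SHAM roots, a ratio of 177 with an interval of 31.4 to 7030, so its organ difference of -6.97 has no firm size. SIG4, a chloroplast sigma factor next to ZIF1 on the chromosome, had 0 and 12 counts in roots, at least 3.65-fold higher, against 54.8 to 97.3 CPM in shoots.

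Of 34 early stress transcription factors and calcium sensors, 21 rose in roots and 18 in shoots (10.3% and 3.74% of all genes), and 2 had a called organ difference, both lower (1.29% of all genes). ERF2, an ethylene response factor, rose from 4.60, 9.15 and 11.2 CPM to 87.4, 80.8 and 105 CPM in roots and from 73.8, 98.2 and 89.6 CPM to 299, 201 and 253 CPM in shoots. The difference between the organs was -1.94 ± 0.38 (adjusted p = 0.0070, and 0.061 without root water replicate 1). WRKY40, a defence repressor, had an organ difference of -2.00 ± 0.52 (adjusted p = 0.049), and after SHAM its levels overlapped between the organs at 49.2 to 53.9 CPM in roots and 40.5 to 59.6 CPM in shoots. WRKY40 kept its call in 2 of the 12 fits without 1 library, those without root water replicate 2 or shoot water replicate 1, and had an adjusted p of 0.124 without SHAM root replicate 1.

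Endoplasmic reticulum chaperones rose in shoots. Of 13 tested, 8 rose in shoots (3.74% of all genes), and 3 rose and 1 fell in roots (10.3% and 5.63%). In the organ difference 5 were called higher and 0 lower (0.436% and 1.29%). The list's median was 1.09, and 1.17 with library size alone. The 5 calls became 3 without shoot water replicate 1 or 3 or shoot SHAM 3 h replicate 1, 2 without shoot SHAM 3 h replicate 2 or 3, and 1 without shoot water replicate 2. BIP2, a luminal Hsp70 that binds unfolded proteins, had 655, 536 and 752 CPM in water roots and 377, 669 and 601 CPM in SHAM roots. Shoots had 118, 91.0 and 155 CPM in water and 427, 418 and 522 CPM after SHAM. The root groups overlapped and the shoot groups did not, and the shoot level in SHAM fell within the range of the roots. Its shoot change was 1.90 ± 0.28, its root change -0.24 ± 0.27 and its organ difference 2.14 ± 0.38 (adjusted p = 0.0029).

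BIP1, which is nearly identical to BIP2 and shares its uncertainty, had an organ difference of 2.08 ± 0.42 (adjusted p = 0.0083). CNX1, the membrane lectin calnexin, had 443, 401 and 509 CPM in water roots and 351, 639 and 469 CPM in SHAM roots, and rose from 142, 147 and 222 CPM to 673, 643 and 611 CPM in shoots. ERDJ3B, a co-chaperone of the Hsp70 proteins, rose in shoots from 18, 25 and 22.2 CPM to 76.6, 83.0 and 75.9 CPM, and its roots had 38.7 to 43.2 CPM in water and 36.4 to 52.7 CPM after SHAM. In both genes the shoot groups lay apart and the root groups overlapped. Their organ differences were 1.8 ± 0.43 and 1.69 ± 0.39 (adjusted p = 0.033 and 0.026).

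A pair of protein disulfide isomerases, which form and rearrange disulfide bonds, was called with a fall in roots. PDIL1-1 fell from 16.1, 23.9 and 15.6 CPM to 5.46, 5.52 and 3.80 CPM in roots, with 1.89, 0 and 1.06 CPM against 0.976, 3.91 and 4.80 CPM in shoots. PDIL1-3, which is not in the list, fell from between 52.8 and 92.6 CPM to at most 39.4 CPM in roots, and its shoots had 5.68 to 13.4 CPM in water and 20.2 to 24.9 CPM after SHAM, a change that was not called. Their organ differences were 3.48 ± 0.80 and 2.4 ± 0.48 (adjusted p = 0.026 and 0.0074). Without 1 library in turn, BIP2 and PDIL1-3 kept their call in 12 of 12 fits, BIP1 in 11 (0.053 without shoot water replicate 2), PDIL1-1 in 7, ERDJ3B in 6 and CNX1 in 5. HSP90.7 and CRT1B rose in shoots, and their organ differences of 0.78 and 1.09 did not pass. BIP3, an inducible member, had 0 counts in the water libraries of both organs and rose in roots, and its organ difference could not be estimated against them.

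**Figure D3:**
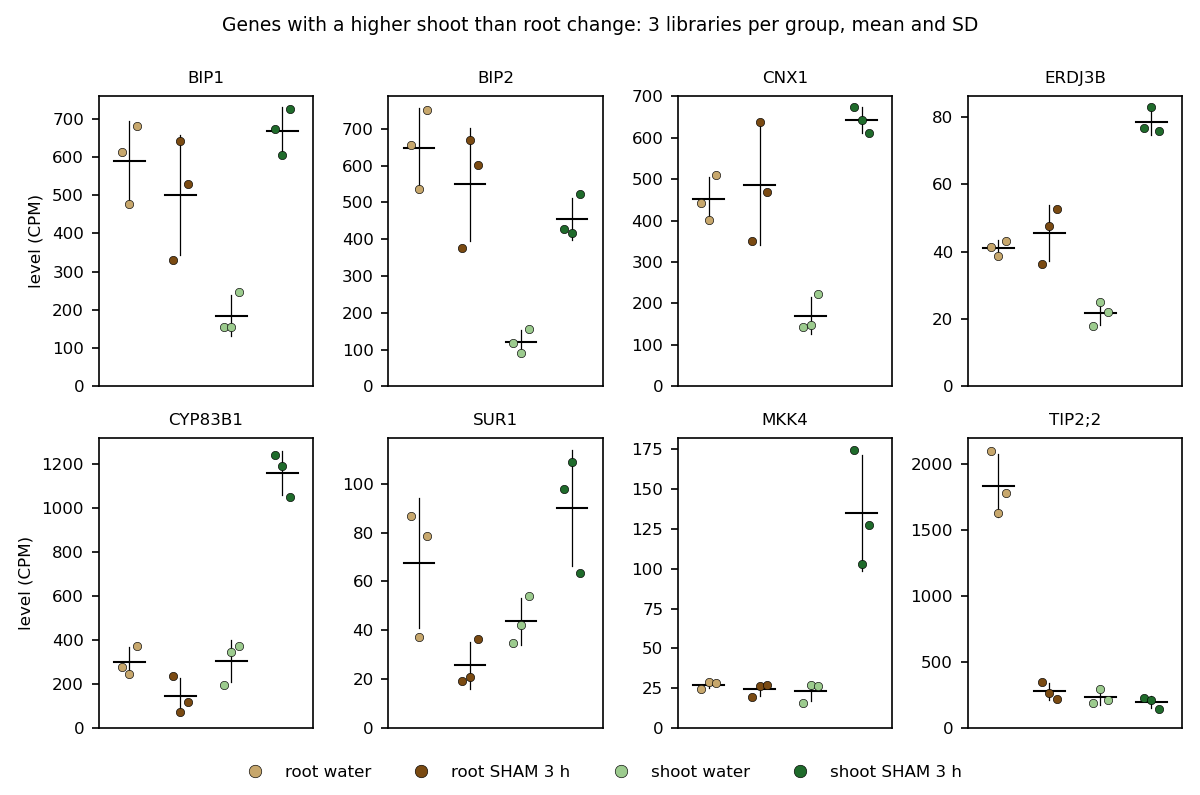
Levels in CPM of 8 genes whose shoot change was above their root change, in each of the 3 libraries of the 4 groups, with the mean (bar) and SD (line). The 4 chaperones, CYP83B1 and MKK4 rise in shoots, SUR1 falls in roots with a shoot rise that was not called, and TIP2;2 falls in roots to the level of the shoots.

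Of 13 genes of tryptophan, camalexin and indole glucosinolate synthesis, CYP83B1 and SUR1 were called higher (0.436% of all genes) and 0 lower, 12 had a positive organ difference, and the median was 0.89. CYP83B1, which commits indole-3-acetaldoxime to glucosinolates, had 278, 247 and 375 CPM in water roots and 239, 75.8 and 121 CPM in SHAM roots. In shoots it rose from 198, 347 and 373 CPM to 1240, 1190 and 1050 CPM. SHAM shoots lay above all other libraries, and SHAM roots below all water roots. The organ difference was 2.97 ± 0.57 (adjusted p = 0.0059).

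SUR1, the C-S lyase of the same pathway, fell in roots from 86.7, 37.3 and 78.5 CPM to 19.4, 21.1 and 36.6 CPM, and in shoots it had 35.0, 42.0 and 53.9 CPM in water and 97.6, 109 and 63.4 CPM after SHAM. The groups did not overlap within either organ, although the shoot change was not called. The shoot change minus the root change was 2.42 ± 0.48 (adjusted p = 0.0072), and both SUR1 and CYP83B1 kept their call without each of the 12 libraries. SOT16, a sulfotransferase that finishes the glucosinolate core, and AKN2, an APS kinase that supplies its sulfate donor, had organ differences of 3.39 ± 0.88 and 2.1 ± 0.49 (adjusted p = 0.046 and 0.027). CYP83A1 and IPMI1, of the aliphatic branch made from methionine, fell in roots by 1.41 and 1.39 with shoot changes of 0.18 and 0.45, and their organ differences were 1.59 ± 0.41 and 1.84 ± 0.43. In the fits without 1 library, SOT16 kept its call in 1, CYP83A1 in 2, and AKN2 and IPMI1 in 6 of 12.

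EMB1144 and PD1, of aromatic amino acid synthesis, were called higher and are in no list. EMB1144, chorismate synthase, makes the precursor of all aromatic amino acids and had an organ difference of 2.60 ± 0.64. PD1, a prephenate dehydratase on the way to phenylalanine, rose in shoots from 89.0, 67.8 and 73.3 CPM to 186, 157 and 203 CPM and had 83.8 to 94.9 CPM in water roots and 54.2 to 74.6 CPM in SHAM roots. The organ difference came to 1.76 ± 0.29 (adjusted p = 0.0012), called in 12 of 12 fits without 1 library, against 3 of 12 for EMB1144. ASA1, the first enzyme from chorismate to tryptophan, had an organ difference of -0.37 that did not pass.

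The kinase genes MKK4 and SERK4 rose in shoots. MKK4, a MAP kinase kinase that relays signals from immune receptors, had 24.6, 28.9 and 28.6 CPM in water roots and 19.4, 26.6 and 27.0 CPM in SHAM roots, and rose from 16.1, 26.8 and 26.4 CPM to 174, 103 and 127 CPM in shoots. SHAM shoots lay far above every other library, and the other groups were close together. This gave an organ difference of 2.68 ± 0.42 (adjusted p = 0.00081), called without each of the 12 libraries. Its close relative MKK5 had 2.36 ± 0.55, with a root fall of 1.17 and a shoot change of 1.19 that was not called. SERK4, a co-receptor kinase, rose in shoots from 3.57 to 5.68 CPM up to 14.4 to 34.2 CPM and stood at 2.43 to 5.52 CPM in all roots, with an organ difference of 2.66 ± 0.66 (adjusted p = 0.041). MKK5 kept its call in 4 and SERK4 in 3 of the 12 fits. AT1G66180, an aspartyl protease gene, rose in shoots from 16.1, 16.1 and 17.3 CPM to 115, 58.7 and 79.7 CPM and had an organ difference of 2.80 ± 0.37 (adjusted p = 0.00015).

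Several genes of water transport and the cell wall fell in roots with no call in shoots. TIP2;2, a vacuolar aquaporin, fell from 2100, 1630 and 1780 CPM to 351, 263 and 223 CPM in roots and had 193, 298 and 211 CPM in water shoots and 230, 215 and 145 CPM in SHAM shoots. SHAM roots ended within or close to the range of shoots. The root change was -2.72 ± 0.26, the shoot change -0.25 ± 0.25 and the organ difference 2.47 ± 0.36 (adjusted p = 0.00031). It was the 1 call among 19 aquaporins, against 0.436% of all genes, and 12 fell in roots and 2 in shoots (5.63% and 1.55% of all genes). The list's median was 0.55.

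COB, a COBRA protein that orients cellulose in growing cells, fell in roots from 35.1, 52.1 and 32.3 CPM to 6.68, 11.0 and 7.15 CPM with 5.99 to 11.6 CPM against 8.79 to 15.2 CPM in shoots. AT3G18170, a glycosyltransferase of family 61, fell from 161, 102 and 157 CPM to 22.5, 28.1 and 25.7 CPM in roots with 15.9 to 21.8 CPM against 15.7 to 26.9 CPM in shoots. In both genes the root groups lay apart and the shoot groups overlapped. Their organ differences were 2.65 ± 0.55 and 2.66 ± 0.40 (adjusted p = 0.012 and 0.00048). TT7, the flavonoid 3'-hydroxylase, fell in roots from 23.3, 14.1 and 9.86 CPM to 1.21, 1.51 and 0.670 CPM. In shoots TT7 had 21 counts in water and 19 after SHAM. Its organ difference was 3.71 ± 0.78 (adjusted p = 0.012), the 1 call among 9 flavonoid genes, against 0.436% of all genes called higher. The list's median was -0.33, with 4 members positive and 5 negative, and DESeq2 called 0 of them. AT5G01740, annotated in the nuclear transport factor 2 family, fell in roots from 21.3, 20.4 and 25.5 CPM to 1.82, 2.01 and 1.34 CPM beside 97.8 to 195 CPM in shoots. COB and TT7 lost their call without shoot SHAM 3 h replicate 2 (adjusted p = 0.071 and 0.078), and TIP2;2, AT3G18170 and AT5G01740 kept theirs without each library.

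Root hair genes, which build the tips of hair cells, fell in roots in 15 of 19 members (5.63% of all genes). By edgeR or DESeq2 0 of them had a called organ difference (1 at an unadjusted p under 0.05). Their means in shoots were at most 6.13 CPM (XTH14), and 2 fell there, XTH14 and XTH26 (1.55% of all genes). RHS13, PRP1 and LRX1 had 0 counts in both shoot groups, so an organ difference could not be measured for them. XTH33 and SYP123, a xyloglucan enzyme and a hair syntaxin outside that list, were called higher at 0 to 2.84 CPM in shoots. In roots XTH33 went from 57 to 2 counts, a ratio of 0.032 with an interval of 0.00379 to 0.121. XTH33 kept its call in 0 and SYP123 in 2 of the 12 fits without 1 library.

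**Figure D4:**
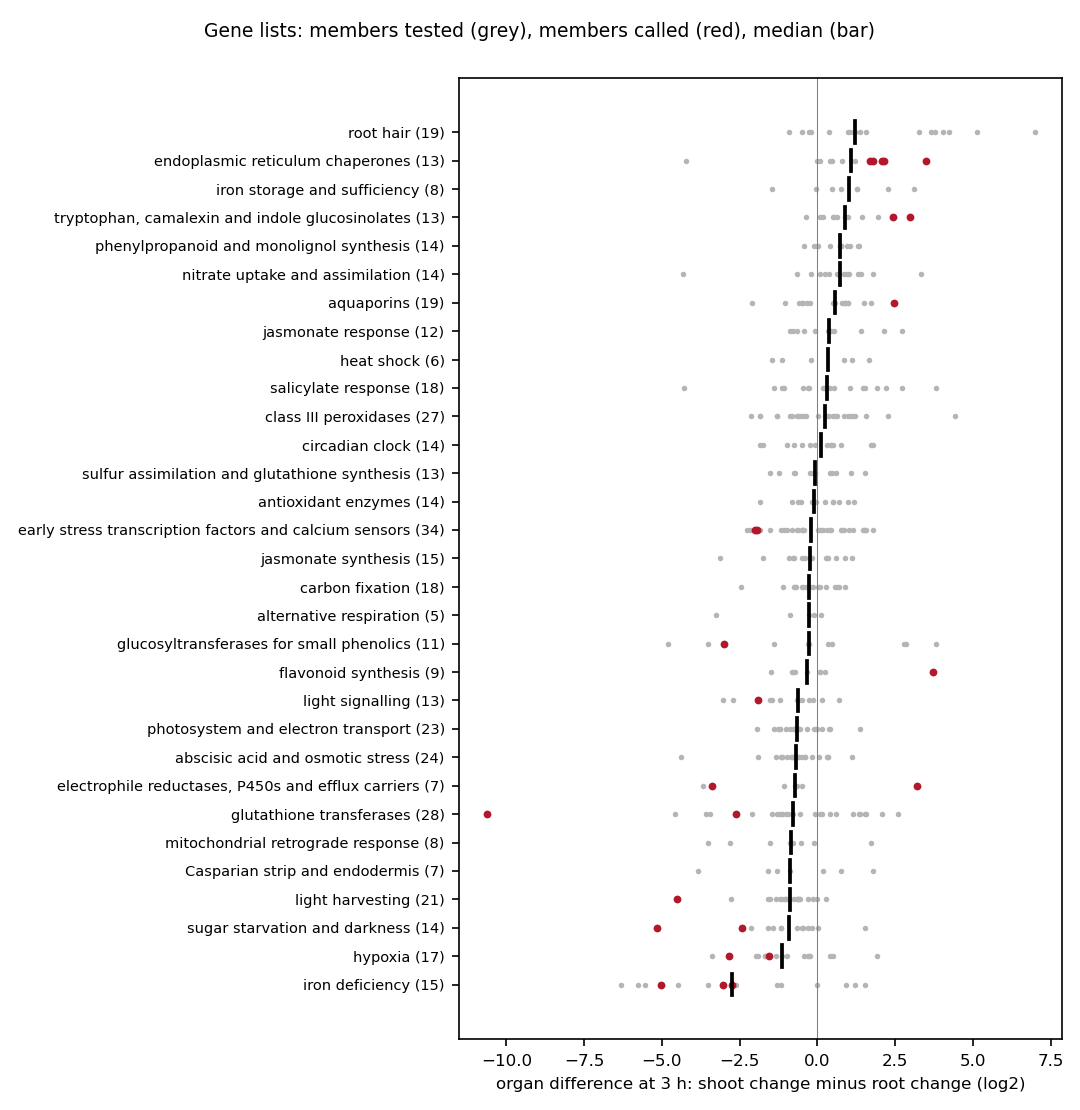
Organ difference on the log2 scale (horizontal axis) of each tested member of the 31 gene lists with at least 5 tested members, ordered by the list's median (black bar), with the number tested in parentheses and called members in red. Iron deficiency has the lowest median, -2.74, and called members lie on the left for iron, hypoxia and sugar starvation and on the right for chaperones and indole glucosinolates.

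Genes of the alternative oxidase pathway and of the salicylate response had no organ difference called by edgeR. AOX1A, the stress-induced alternative oxidase, had 33.8, 11.3 and 34.0 CPM in water roots and 69.2, 103 and 154 CPM in SHAM roots, and 16.1, 40.2 and 33.1 CPM in water shoots and 56.6, 58.7 and 84.5 CPM in SHAM shoots. SHAM lay above water in each organ, with the root call alone passing. The organ difference was -0.88 ± 0.54 (adjusted p = 0.501). NDB2, its partner NADH dehydrogenase, rose in both organs, with an organ difference of -0.11 ± 0.52 (adjusted p = 0.973). LOX1, a lipoxygenase, had 0.35 ± 0.69 (adjusted p = 0.888). These intervals leave room for differences of 2-fold or more.

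Of 18 salicylate response genes tested, 13 rose in roots and 13 in shoots (10.3% and 3.74% of all genes), and 0 differed between the organs by edgeR, with a list median of 0.30. An unadjusted p under 0.05 was reached by 6 of them, and DESeq2 called 2 higher. GRX480, a glutaredoxin induced by salicylate, rose from 6.24, 7.04 and 7.82 CPM to 404, 605 and 487 CPM in roots and from 1.89, 0.893 and 0.705 CPM to 93.7, 87.8 and 148 CPM in shoots. Water and SHAM were far apart in both organs, and roots lay above shoots at both. The organ difference was 0.52 ± 0.49 (adjusted p = 0.797). Of 24 genes of abscisic acid and osmotic stress, 10 rose in roots and 3 in shoots (10.3% and 3.74% of all genes), 0 had a called organ difference by edgeR (7 at an unadjusted p under 0.05, 1 called lower by DESeq2), and the median was -0.68. In all, 467 of the 580 loci in the 33 lists were tested and 25 were called, and 177 called genes are in no list.

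The organ difference was also estimated at 1 h and 2 h, with the same water libraries. It was called for 694 genes at 1 h (5.93%; 1.97% higher and 3.96% lower) and 391 at 2 h (3.34%; 0.82% higher and 2.52% lower), and of the 202 called at 3 h, 96 were called at 1 h, 108 at 2 h, 71 at both and 69 at neither. A test of 3 h against 2 h, in which the water libraries cancel, called 24 genes (0.205%; 0.128% higher and 0.0769% lower), and 3 h against 1 h called 366 (3.13%; 1.79% higher and 1.34% lower). Among the 202, 4 differed from 2 h (ELIP2, CYP83B1, PD1 and AKN2) and 39 from 1 h. The 24 became 0 without shoot SHAM 3 h replicate 1 or 2, and lay between 1 and 15 without any other library of the contrast. The 366 became 617 without shoot SHAM 3 h replicate 3, 185 and 134 without its replicates 1 and 2, and 212 without root SHAM 3 h replicate 2.

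CYP83B1 and ELIP2 changed the sign of their organ difference with time. CYP83B1 had organ differences of -2.38 ± 0.57 at 1 h, -0.33 ± 0.56 at 2 h and 2.97 ± 0.57 at 3 h, and its mean level was 306, 124, 192 and 1160 CPM in shoots in water and at 1, 2 and 3 h. In roots its mean was 300, 635, 237 and 145 CPM over the same groups. The 3 h value exceeded that at 2 h by 3.29 ± 0.57 (adjusted p = 0.023). ELIP2 went from 2.77 ± 0.41 through 0.80 ± 0.41 to -1.91 ± 0.44, with shoot means of 5.67, 106, 41.3 and 8.59 CPM and root means of 37.8, 97.2, 150 and 198 CPM. Its 3 h value was lower than at 2 h by -2.71 ± 0.40 (adjusted p = 0.0062).

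LHCB2.4 was high in shoots early, with means of 206 CPM in water, 4410 CPM at 1 h, 2010 CPM at 2 h and 216 CPM at 3 h, and its organ difference was 0.31 at 1 h and -4.50 at 3 h. Root SHAM 1 h replicate 1 had a photosynthesis share of 4.21%, the highest of all roots, which enters the 1 h value. ZIF1 stood at 78.7 CPM in shoots at 1 h, 33.9 CPM at 2 h and 13.7 CPM at 3 h, while roots had 74.9, 84.5 and 101 CPM. OPT3 and AT3G29240 had organ differences of -3.99 and -3.17 at 1 h and -5.04 and -3.64 at 3 h, and neither passed the test between times.

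**Figure D5:**
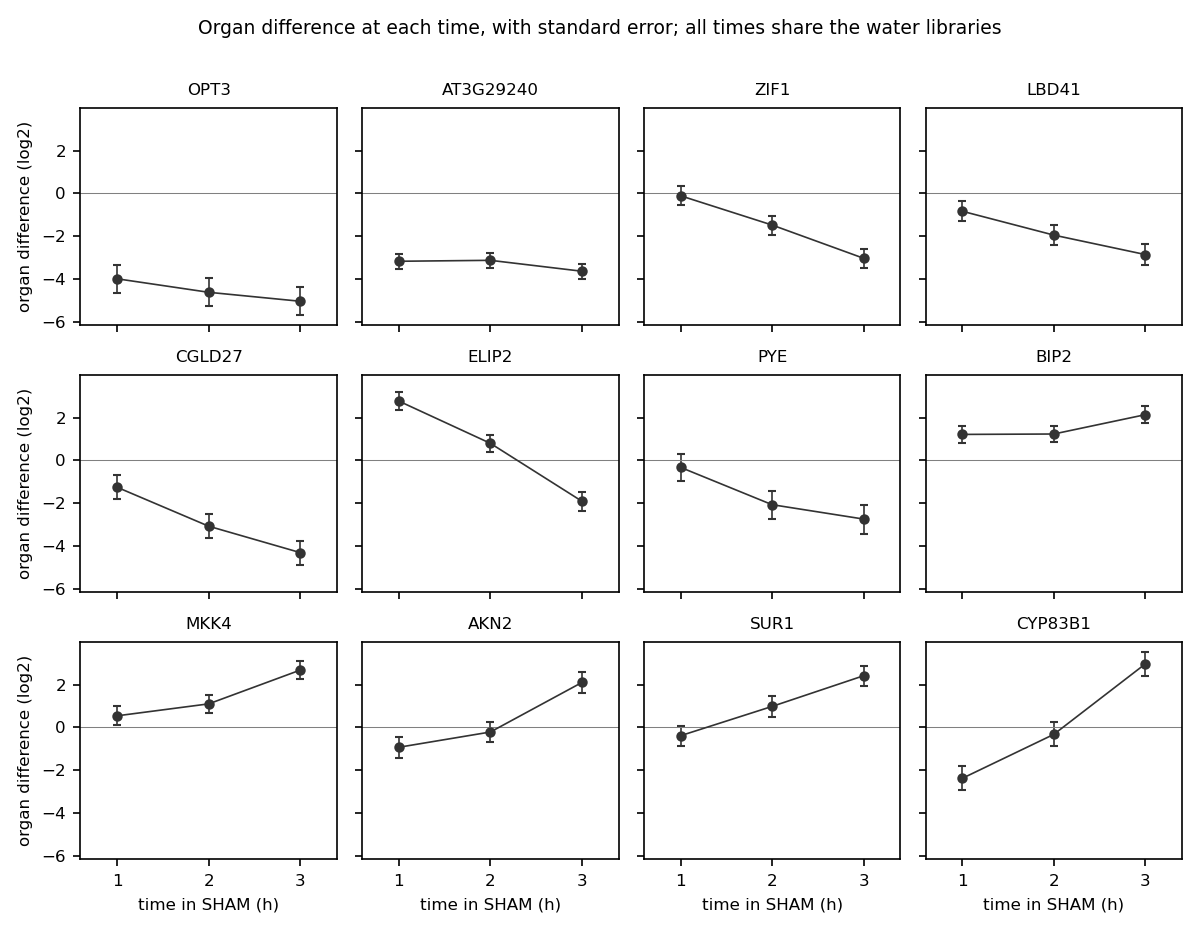
Organ difference on the log2 scale (vertical axis) at 1, 2 and 3 h in SHAM (horizontal axis) for 12 called genes, with the standard error; the 3 values of a gene share the water libraries. OPT3, AT3G29240 and BIP2 keep one sign, whereas ELIP2 goes from 2.77 to -1.91 and CYP83B1 from -2.38 to 2.97.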

How the data were processed

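Measured in all were 24 MARS-seq libraries, which count 3' ends of transcripts, sequenced on a NextSeq 500. The authors deposited whole-number counts per gene for 16183 genes, of which 16082 matched a locus of the TAIR10.1 annotation, the source of symbols and gene descriptions. Tools listed in the submitters' processing notes, without roles, are STAR 2.4.2a, HTSeq, DESeq2, cutadapt and bcl2fastq. Genome build and any collapsing of molecular identifiers are not given in the sources used here, so no coordinates or sequences are printed. The table's 48 other per-library columns (normalized or transformed values) were not used.

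All 24 libraries were fitted together, as 8 groups of 3, with edgeR 4.0.16 (limma 3.58.1, R 4.3.3): filterByExpr (minimum count 10, minimum total 15), TMM scaling, quasi-likelihood test, Benjamini-Hochberg adjusted p under 0.05 over all 11704 genes tested ("called"). The 12 libraries outside the contrast enter the filter, the scaling and the estimate of spread. Standard errors are the absolute log2 value over the square root of F. Levels are CPM, counts relative to the TMM-scaled library total. A gene counts as detected at a mean of 2 CPM in the higher group of an organ. Intervals (95%) and the 3-count floor cover counting error only. The labels name biological replicates of pooled seedlings. Alternatives used DESeq2 1.42.0 and other settings given in the closing section. The code was tested on simulated data. Figures used python 3.11.15 and matplotlib 3.10.9.

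The named genes are, among those called at a mean of 10 CPM or more and detected in both organs, the 12 highest and 12 lowest, 4 and 4 detected in 1 organ, up to 3 called members of each list, 5 and 5 with opposite organ changes, and 9 genes throughout. Part of them is printed. The members, lists and rule were chosen with earlier results of these data known. CNX1, ERDJ3B, PDIL1-3, SOT16, AKN2, CYP83A1, IPMI1, PD1, MKK5, SERK4, MO1, PMAT1, PDX1.1, RSR4, PP2-B14, CNI1, AT5G07860, AT5G07870 and the uncalled list members other than AOX1A, NDB2, LOX1, GRX480, FER1 and BHLH39 were named after their values were seen.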

Additional observations from a re-analysis of the deposited data

Results flagged for a closer look

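The shoot change differed from the root change in 202 genes at 3 h by edgeR's quasi-likelihood test, all of which the report describes by gene or by count. Between 3 h and 2 h the organ difference itself differed in 24 genes and between 3 h and 1 h in 366. Among the named genes, the 3 h value was below that at 2 h for ELIP2 by -2.71 and above it for CYP83B1 by 3.29 on the log2 scale.

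Against 1 h, the 3 h organ difference was lower for AT1G56150 by -3.35, LHCB2.4 by -4.81, CGLD27 by -3.05, AT5G22270 by -3.28 and AGP13 by -2.04. It was also lower for the iron genes ZIF1 by -2.92 and PYE by -2.42, for the hypoxia gene LBD41 by -2.03 and for ELIP2 by -4.68. It was higher for CYP83B1 by 5.35, SUR1 by 2.80, MKK4 by 2.14, AT1G66180 by 1.56, AT5G01740 by 2.24, TT7 by 3.34 and AT5G46580 by 4.25. AT5G46580 had 8 counts in water roots and 0 in SHAM 3 h roots, so its value has no firm size. The 1 h values include root SHAM 1 h replicate 1, in which photosynthesis genes took 4.21% of counts, and the part of that library was not tested.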

How the results depend on the processing

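Over 21 alternative fits, none of the 202 genes changed sign where it was tested. DESeq2 tested 190 of them, and 195 were tested without genes 50-fold higher in shoots. These fits reuse the libraries that chose the 202, so the unchanged signs are a description and not a test. In all 21 fits 53 were called, 42 lower and 11 higher. The organ difference was called in 125 genes (28 higher, 97 lower) with no filter on low counts, 385 (111 and 274) with DESeq2 and 306 with only the 12 libraries of the contrast, of which 240 were lower. At an adjusted p under 0.01 it was called in 67 (14 and 53), and library size alone gave 105 higher and 62 lower. Root calls were 1007 and shoot calls 301 at 0.01. For 3 h against 2 h the calls were 8 with no filter, 109 with DESeq2 and 1 at 0.01. For 3 h against 1 h they were 630 with library size alone, 762 with DESeq2 and 90 at 0.01.

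Leaving out 1 library gave 79 to 151 calls (18 to 53 higher, 51 to 115 lower), 1198 to 1919 in roots, 299 to 718 in shoots, 0 to 15 for 3 h against 2 h and 134 to 617 for 3 h against 1 h.

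The labels do not say whether root and shoot libraries of one replicate number share a pool. Same-numbered libraries had correlations of deviations from -0.372 to 0.256 in water and at 3 h, and from -0.4 to 0.388 at 1 h and 2 h. Unlike-numbered ones ran from -0.429 to 0.405 and from -0.695 to 0.739. With 3 libraries per group these values cannot tell whether the numbers pair the samples. A replicate block for the pool of treatment and number left 81 calls (16 higher, 65 lower). It left 3 for 3 h against 2 h and 106 against 1 h. Of the 202 genes, 79 kept their call under this block, and 21 of the 56 named genes lost theirs. A block for the number alone left 14 calls for 3 h against 2 h.

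Of the named genes, NDB2 turned to 0.27 with library size alone and to 0.13, 0.15, 0.15, 0.11 and 0.05 without root water replicate 1 or 2, root SHAM 3 h replicate 2 or 3, or shoot SHAM 3 h replicate 2. Leaving out 1 library moved NDB2 between -0.32 and 0.15. LOX2, with 0 counts in water roots and 4 in SHAM 3 h roots, had values down to -3.98. Without root SHAM 3 h replicate 1 its value of 0.26 had a standard error of 1085.8, so it is no estimate. Neither gene was called. For NDB2 the cause of the change of sign was not tested. Genes under a few counts per library in 1 organ are limited by depth.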
